A study of Mus musculus with 18 samples.

Results

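The genes described here are 10 genes of the pancreatic acinar cell (Cpa1, Cpb1, Cel, Ctrb1, Pnlip, Clps, Pnliprp1, Serpini2, Gp2 and Klk1) as they were read in mouse liver RNA. They were chosen by their values on these same arrays, because several of them were high on some control arrays and on no hypothyroid array, so their levels and the difference between the groups are a description and carry no test. They are 10 of 16535 genes with a symbol on the array, and each had 1 of its 41174 probes, matched through the RefSeq accession of the probe. Livers came from male C57BL/6 pups at postnatal day (PND) 15, 1 pup from each litter. The hypothyroid pups (5 arrays) were nursed by dams given 0.05% methimazole (MMI) and 1% perchlorate in sugar water from PND 12, the control pups (5 arrays) were nursed by dams on sugar water, and pups of both groups received a PBS injection shortly before sacrifice. All values below are the log2 ratio of liver RNA to a universal mouse reference RNA unless another scale is named, so 1 unit is a doubling of liver over reference and 0 is an equal signal.

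Acinar cells fill the exocrine pancreas and make the enzymes that digest food. The enzymes are packed into zymogen granules, mostly as inactive precursors, and are released into the pancreatic duct. The peptidases here are Cpa1 and Cpb1 (carboxypeptidases) and Ctrb1 (chymotrypsinogen B). The lipid-digesting group holds Pnlip (pancreatic lipase), its cofactor Clps (colipase), Cel (bile salt-dependent lipase) and Pnliprp1 (a lipase-related protein). Serpini2 is a serine protease inhibitor of the pancreas, Gp2 is the main glycoprotein of the zymogen granule membrane, and Klk1 is tissue kallikrein, a protease also made in kidney and salivary gland. Transcription of many acinar genes depends on PTF1, a complex of Ptf1a, an E protein and Rbpjl that binds an E-box and a TC-box.

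The promoters of 4 members are printed because these genes had different patterns on the arrays: Cpb1, with the widest spread between arrays, Cpa1 and Cel, which moved with it, and Pnliprp1, which was high on every array. Each runs from 250 bases before to 50 bases after the RefSeq start of the gene in GRCm38.p6, 5′ to 3′ on the gene's strand. Capitals mark the E-box CACCTG and the TC-box TTTCCC on either strand, which do not overlap here.
Cpb1, chr3:20275684-20275983, minus strand: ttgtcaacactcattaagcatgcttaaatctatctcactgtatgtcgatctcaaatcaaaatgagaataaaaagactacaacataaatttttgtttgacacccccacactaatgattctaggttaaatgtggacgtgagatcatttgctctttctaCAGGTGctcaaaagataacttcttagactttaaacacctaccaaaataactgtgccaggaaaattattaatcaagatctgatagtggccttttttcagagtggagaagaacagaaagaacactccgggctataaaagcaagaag
Cpa1, chr6:30638968-30639267, plus strand: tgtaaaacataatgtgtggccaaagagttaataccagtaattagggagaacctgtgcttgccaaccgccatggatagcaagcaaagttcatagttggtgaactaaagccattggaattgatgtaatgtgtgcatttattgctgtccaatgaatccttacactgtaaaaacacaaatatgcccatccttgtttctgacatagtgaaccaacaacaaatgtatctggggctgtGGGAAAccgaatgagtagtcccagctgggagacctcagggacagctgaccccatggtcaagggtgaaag
Cel, chr2:28563354-28563653, minus strand: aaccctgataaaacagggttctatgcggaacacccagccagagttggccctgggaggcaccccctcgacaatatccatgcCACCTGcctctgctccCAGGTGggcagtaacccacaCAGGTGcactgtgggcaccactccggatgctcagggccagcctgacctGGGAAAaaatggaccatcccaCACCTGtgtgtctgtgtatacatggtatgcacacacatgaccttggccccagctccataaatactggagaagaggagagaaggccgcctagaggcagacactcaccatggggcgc
Pnliprp1, chr19:58728637-58728936, plus strand: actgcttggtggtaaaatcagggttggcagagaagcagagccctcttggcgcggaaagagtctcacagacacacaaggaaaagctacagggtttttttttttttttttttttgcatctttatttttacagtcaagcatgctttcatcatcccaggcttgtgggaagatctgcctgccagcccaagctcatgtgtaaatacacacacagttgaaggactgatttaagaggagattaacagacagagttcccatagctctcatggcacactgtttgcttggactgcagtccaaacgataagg
The sequence table held 9 of the 10 members, all but Clps. An E-box was in 4 of these 9 windows (Cpb1, Cel, Serpini2 and Klk1) and a TC-box in 3 (Cpa1, Cel and Ctrb1), beside 20.2% and 25.2% of 32851 promoter windows of the same length. With the gene start at position 0, the E-box of Cpb1 began at -94, that of Serpini2 at -109 and that of Klk1 at -87. Cel was the only member with both motifs. Pnliprp1, Pnlip and Gp2 had neither in this window. Pnliprp1 and Pnlip lie close together on chromosome 19, with 2 annotated genes between them, while their array values differed.

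Some arrays stood apart and the values below rest on them. The labels give liver as Cy5 on every array, but slide 141 (control 832 and hypothyroid 576) ran the opposite way: read with those dyes, its log2 ratios had a correlation across probes of -0.97 and -0.98 with the other slides. Their channels were exchanged here, and the correlations were then 0.97 and 0.98. The direction of that slide is therefore not settled by the labels, and the counts and likenesses that rest on control 832 are given again with the dyes as labelled or without slide 141. With the dyes as labelled the liver and reference channels of this slide also change places in all single-channel levels and sums. Control 616 had compressed ratios, with a slope of 0.61 on the mean of the other slides against 0.97 to 1.07 on the other arrays, and 1.03% of its spots marked as outliers against at most 0.0194% elsewhere. Between 75.9% and 85.4% of probes on an array were above the background limit. Of 41174 probes, 32055 passed the filter on dim probes, and these include 9 of the 10 members, all but Pnlip. Hepatocyte genes were bright on every array, with ratios of 2.05 to 3.80 for Alb (albumin) and 2.41 to 5.37 for Fgb (fibrinogen beta chain), and control 616 had the lowest of both.

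Among the peptidases, Cpb1 varied most. Its ratio in the control livers was 6.51 in animal 832, 6.39 in 522 and 4.48 in 616, but 0.19 in 881 and 0.06 in 391. In the hypothyroid livers it was 0.32, 0.12, 0.39, 0.34 and 0.30 in animals 891, 576, 311, 723 and 626, with a mean of 0.29 ± 0.10 (SD, n = 5). Controls 832, 522 and 616 therefore lay 69.7-, 64.1- and 17.0-fold above the highest hypothyroid liver, while the remaining pair of controls lay within or just under the hypothyroid range. The groups overlapped, and the control mean of 3.53 ± 3.21 (SD, n = 5) describes no single control liver.

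Cpa1 was high on the same 3 arrays, in the same order, at a lower height. Its ratio was 3.90, 3.84 and 2.66 in controls 832, 522 and 616, and 0.15 and 0.17 in controls 881 and 391. The hypothyroid livers held -0.03, 0.13, 0.07, 0.23 and 0.19 in the order given above, so that they enclosed the latter pair of controls. Ctrb1 differed from both carboxypeptidases in its baseline. Its ratio was 2.03 in control 832 and 2.13 in control 522, but also 0.99 in control 881, 0.86 in control 391. The hypothyroid livers had a mean of 0.90 ± 0.16 (SD, n = 5), so liver signal was present for it everywhere. Its spot on control 616 was marked as an outlier and has no value, so its group difference of -0.60 rests on 4 control arrays. That difference was -0.39 without control 522, -0.38 without slide 141 and 0.13 with the dyes as labelled.

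Of the lipid-digesting group, Cel and Clps followed the carboxypeptidases. Cel was at 3.99, 4.14 and 2.55 in controls 832, 522 and 616, against 0.41 in both other controls and 0.29 to 0.58 in the hypothyroid livers. Clps was at 3.85, 4.12 and 2.22 in the same 3 controls, against -0.10 and -0.04 in controls 881 and 391 and -0.10 to -0.01 in the hypothyroid livers. For both genes the hypothyroid livers lay close together, and the 3 high controls lay far outside them. Pnlip was high on fewer arrays. It was at 2.01 in control 832 and 1.94 in control 522, but at 0.17 in control 616, beside 0.02 and 0.06 in controls 881 and 391 and 0.01 to 0.16 in the hypothyroid livers. The scanner software placed its liver signal well above background on those first 2 arrays and on 0 of 5 hypothyroid arrays. On the scale of the liver channel the mean log2 levels were 6.88 in control and 6.04 in hypothyroid livers. With the hypothyroid levels raised at least to the lowest level marked well above background, the control mean was 1.75-fold higher. This is not a strict bound, because the signals of controls 881, 616 and 391 were not well above background either and entered as measured.

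Pnliprp1 was the exception among the lipases. Its ratio was 4.44, 4.83, 5.33, 3.51 and 4.27 in controls 881, 832, 522, 616 and 391 and 4.61, 4.28, 4.58, 4.57 and 4.49 in hypothyroid animals 891, 576, 311, 723 and 626. Every liver thus held far more signal for it than the reference RNA, and the group means of 4.48 ± 0.68 and 4.51 ± 0.13 (SD, n = 5 each) differed by 0.03. Controls 832 and 522 were again the highest arrays, by 0.23 and 0.72 over the highest hypothyroid liver. Control 616 was the lowest array, as it was for Alb and Fgb. The probe may also read related lipase transcripts, which was not tested.

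Serpini2, the protease inhibitor, was the only member whose groups did not overlap. Its ratio was 3.32, 3.09 and 2.39 in controls 832, 522 and 616 and 0.17 and 0.11 in controls 881 and 391, against 0.07, 0.07, -0.02, 0.09 and 0.09 in the hypothyroid livers. The last 2 controls cleared the highest hypothyroid liver by 0.08 and 0.03 only. Klk1 was at 2.32 and 2.36 in controls 832 and 522 and at 0.66 in control 616, with 0.29 and 0.32 in controls 881 and 391 and 0.12 to 0.32 in the hypothyroid livers. Gp2 was the lowest of the members. It was at 1.09 in control 832 and 1.53 in control 522, and between -0.04 and 0.04 in the other 3 controls, with -0.19 to -0.02 in the hypothyroid livers.

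**Figure D1:**
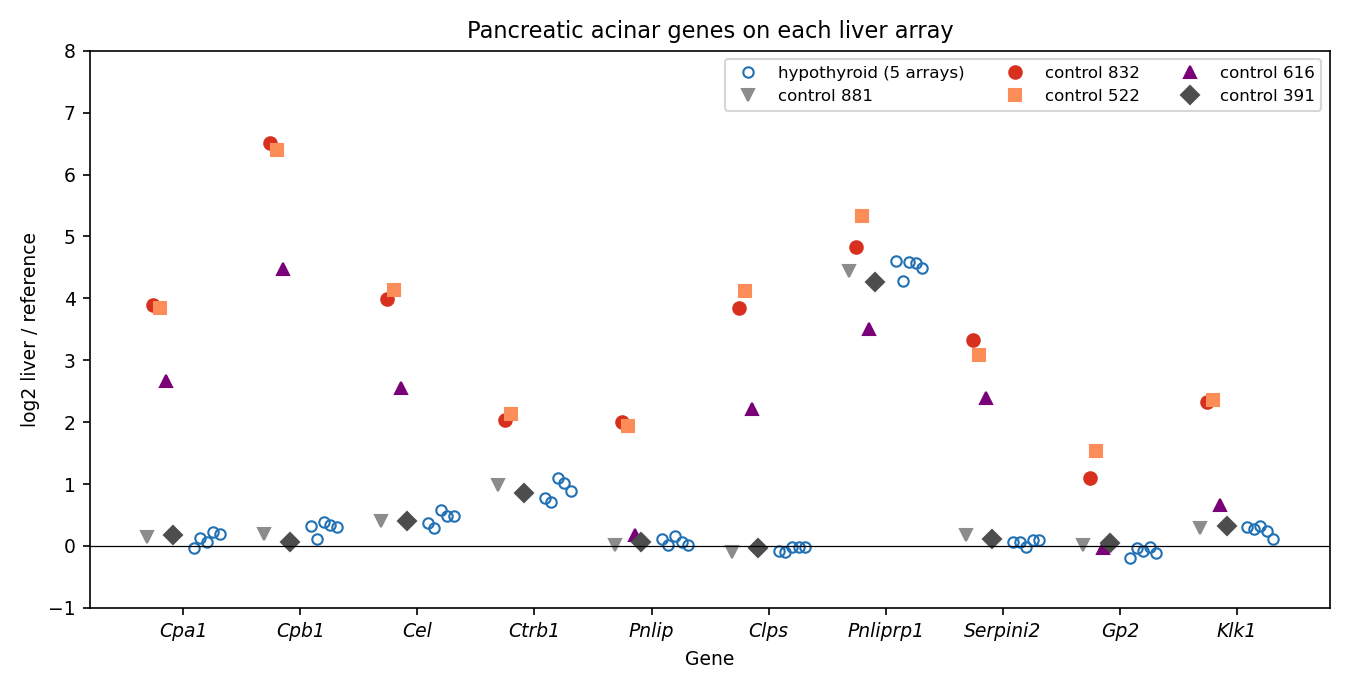
Log2 ratio of liver to reference RNA (vertical axis) for each of the 10 acinar genes (horizontal axis) on each of the 10 arrays, with filled symbols for the 5 control arrays and open circles for the 5 hypothyroid arrays, 1 point for each array and no error bars. Controls 832 and 522 are the highest points for every gene, and Pnliprp1 is at 3.51 or more everywhere. Control 616 comes next for Cpa1, Cpb1, Cel, Clps, Serpini2 and Klk1, and for Pnlip only at 0.17 against 0.16.

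Across the members the same arrays stood highest. Controls 832 and 522 were the highest 2 arrays for 10 of 10 members, against 2.23% of the probes that passed the filter, and this was also the basis on which the genes were chosen. Controls 832, 522 and 616 were the highest 3 arrays for Cpa1, Cpb1, Cel, Clps, Serpini2, Klk1 and Pnlip, but not for Pnliprp1 and Gp2. Ctrb1 had no value on control 616. The share of all probes with this order is not given, so it is a description only. Pnlip held this order with only 0.17 on control 616 against 0.16 on hypothyroid 311. Its signal on control 616 was not well above background. Counted by array, 8 of 10 members were more than 1 unit above the highest hypothyroid liver on control 832, where 0.165% of probes were, and 9 of 10 were on control 522, where 0.284% of probes were. On control 616 it was 5 of 9 members and 2.65% of probes. On controls 881 and 391 it was 0 of 10 members each, with 0.0156% and 0.00936% of probes. With the dyes of slide 141 as labelled, the sign of every value of control 832 and hypothyroid 576 is turned, and 0 members then had controls 832 and 522 highest, beside 0.418% of probes. Without slide 141 control 522 was the highest array for 10 of 10 members, beside 10.1% of probes. The count of members more than 1 unit up on control 522 was again 9 without that slide.

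The 3 arrays were on 3 different slides, each with a hypothyroid array beside it. The slide is also the unit of hybridization and scan. On slide 141 the hypothyroid liver was below the control liver for 10 of 10 members, by more than 1 unit for 9, and on slide 136 the counts were also 10 and 9. Of all probes that passed the filter, 0.315% and 0.587% were that much lower on these slides. The median member difference was -2.64 on slide 141 and -2.58 on slide 136. With the dyes as labelled, slide 141 reads the other way, with 0 members lower in hypothyroid liver and 9 higher by more than 1 unit (0.315% of probes), and a median of 2.65. On slide 100, which held control 616, 5 of 9 members were lower by more than 1 unit, beside 4.73% of probes, and the median was -2.05. On slide 139, which held control 881, it was 0 of 10 members beside 0.0967% of probes, and the members' differences ran only from -0.22 to 0.16. Lower members were thus found within slides 136 and 100, and within slide 141 when its channels are exchanged, but not within slide 139.

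The likeness of the members to each other was described by Pearson's r over the 10 arrays between each gene and the median profile of the other members, with no test, since the arrays fall into clusters. It was 0.995 for Clps, 0.994 for Cel, 0.987 for both Cpa1 and Cpb1, 0.981 for Serpini2 and 0.973 for Ctrb1. Klk1 (0.938), Pnlip (0.901) and Gp2 (0.860) were highest on the same 2 arrays and had only 0.66, 0.17 and -0.04 on control 616. Pnliprp1 stood apart at 0.287. Without slide 141 the r was 0.137 for Pnliprp1 and 0.798 (Gp2) to 0.995 (Cel and Clps) for the other 9. With the dyes as labelled it was 0.661 for Pnliprp1 and 0.853 to 0.998 for the others. Pnliprp1 was the least alike in each case.

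The comparison of hypothyroid with control livers called 3 of 32055 probes (limma, adjusted p under 0.05), which is 0.00936%, 1 higher and 2 lower in hypothyroid liver, and 0 of the 9 members that passed the filter were among them. At an unadjusted p below 0.05 there were 7 of these 9 members, beside 7.47% of all probes. The members were chosen on this contrast, so neither count is evidence about them. The median difference over all 10 members was -1.35, against -0.01 over all probes. Probes with every hypothyroid liver below every control liver made up 0.986%, and Serpini2 was such a probe. The limma standard errors were wide where the control livers were uneven, for example 1.23 on a difference of -3.23 for Cpb1.

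Liver levels on all arrays were judged from the liver channel. Its signal was well above background on all 10 arrays for Cpb1, Cel, Ctrb1, Pnliprp1 and Klk1. The levels of these genes differed, however, in the hypothyroid livers and in controls 881 and 391. There the log2 level was 6.50 to 7.35 for Cpb1 and 6.91 to 7.17 for Klk1. The lowest level so marked on an array was 5.69 to 6.22, so both were dim there. Cel was at 8.28 to 8.78 and Ctrb1 at 9.83 to 10.35. Cpa1 and Clps were so on all arrays but control 391, and Serpini2 on all but control 391 and hypothyroid 311. Gp2 was well above background on 3 arrays (controls 832 and 522 and hypothyroid 723) and Pnlip on 2. The log2 level of Pnliprp1 in this channel was between 11.74 and 12.17 in the hypothyroid livers and in controls 881 and 391, 14.47 in control 832, 14.60 in control 522 and 12.29 in control 616. On this scale Pnliprp1 was thus higher on the same arrays as the other members, which its ratio shows only in part.

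A ratio also depends on the reference channel. The labels name the same commercial reference RNA for every array, yet the log2 level of Pnliprp1 in the reference channel was 9.64 on control 832, 9.27 on control 522 and 8.77 on control 616, against 7.32 to 7.60 on the hypothyroid arrays. Cpa1 likewise had reference levels of 9.34, 9.01 and 7.30 on these 3 arrays, against 6.38 to 6.57. Clps had 9.06, 9.06 and 7.64, against 6.46 to 6.66. Controls 832 and 522 were the highest 2 arrays in the reference channel for 6 of 10 members (Cpa1, Cpb1, Cel, Ctrb1, Clps and Pnliprp1), and for 0.749% of all probes. They were not for Serpini2, Gp2, Klk1 and Pnlip. On control 832 the excess over the highest hypothyroid array ranged from -0.70 for Gp2 to 2.77 for Cpa1. The cause of the reference signal was not tested.

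**Figure D2:**
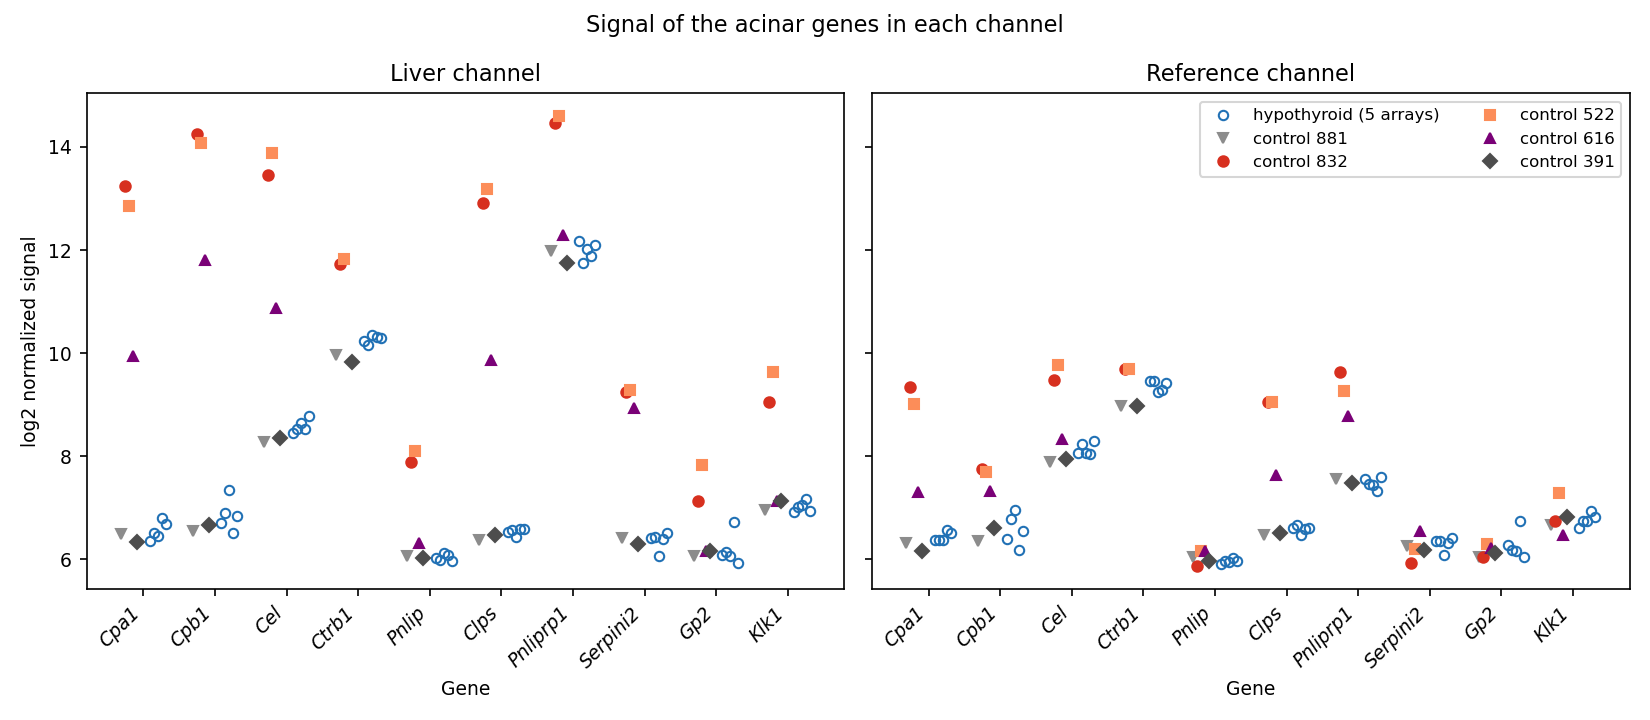
Log2 normalized signal of the 10 acinar genes in the liver channel (left) and the reference channel (right), 1 point for each array, with filled symbols for controls and open circles for hypothyroid livers. In the liver channel controls 832 and 522 are highest for every gene, and in the reference channel for 6 of them, by up to 2.77 units over the highest hypothyroid array.

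The genes most like the members were then ranked among all probes with a gene symbol by the same r. Of the first 15, 14 were in a wider list of 50 acinar genes without the members, of which 37 had a probe. The filter left 20489 probes with a symbol, and 25 genes of the list were among them. The profile ranked on is that by which the members were chosen, and the list was made with earlier results of these data known. The overlap is therefore a description and no test. Among the 14 were Cela3b, an elastase (r = 0.998), and 2210010C04Rik, a gene of the trypsinogen family (0.996). They also included Cela2a, Zg16, Rnase1, Reg1, Try5, Prss3, Rbpjl, Sycn, Prss2, Cela1 and Tff2, with r of 0.966 to 0.993. Rnase1 stood there by the dimmer of its probes, and the brighter one had r = 0.957. Klk1b8, a kallikrein related in sequence to Klk1, was the one outside the list (0.983), and 3 probes without a symbol were as alike. Ranked without slide 141, 12 of the first 15 were in the list. Reg1, a secreted acinar protein, reached the highest ratios, at 7.04 in control 832, 6.74 in 522, 4.57 in 616 and 1.29 in 391, with -0.02 to 0.56 in the hypothyroid livers and 0.04 in control 881. Cela3b was at 5.58, 5.63 and 4.14 in controls 832, 522 and 616, against 0.01 to 0.34 on all other arrays. Rbpjl, the acinar subunit of PTF1, followed at a small scale, with 0.67, 0.55 and 0.24 in these 3 controls and -0.35 to -0.19 elsewhere. Trypsinogen and kallikrein genes have close relatives, and a probe may read several of them.

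**Figure D3:**
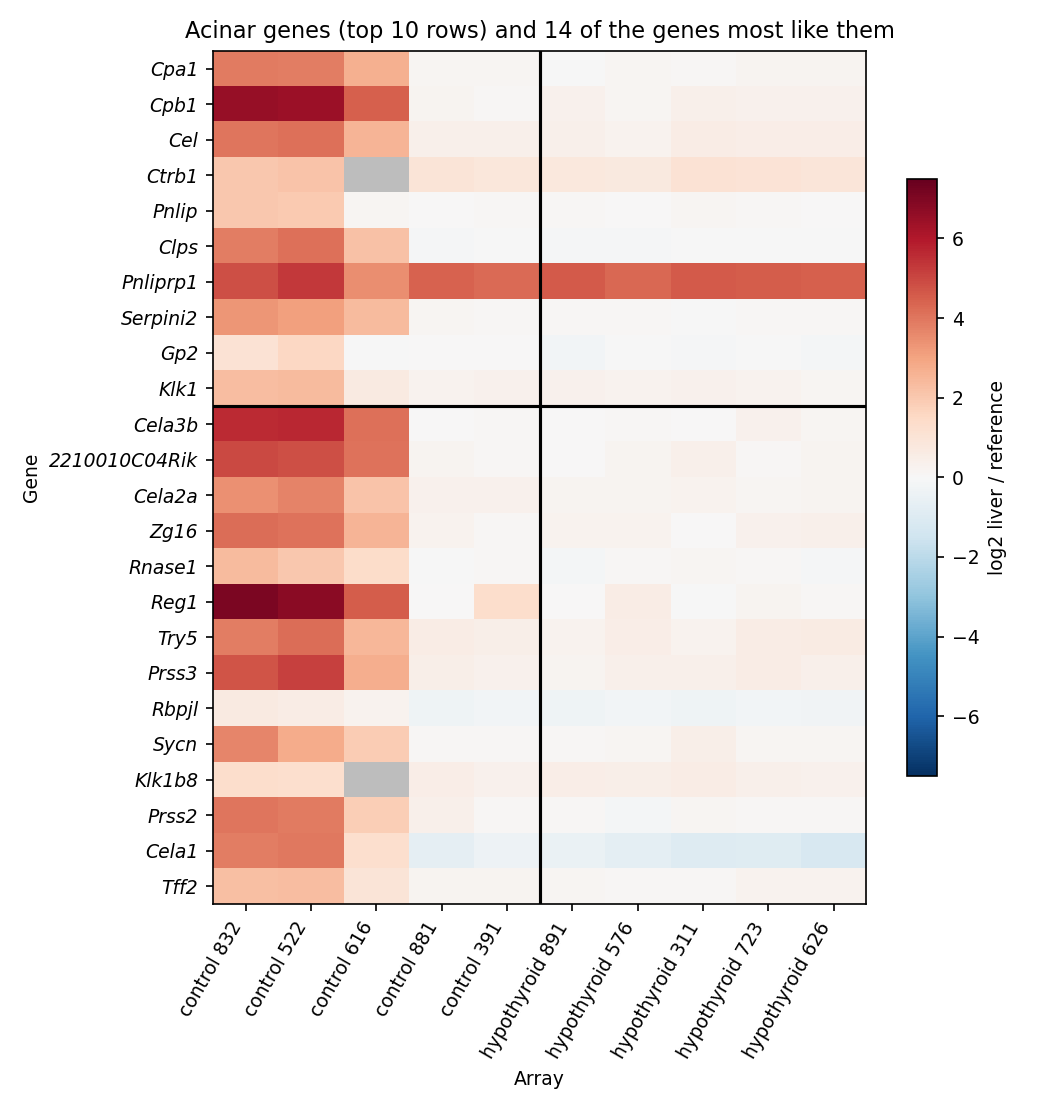
Log2 ratio of liver to reference RNA (colour) for the 10 acinar genes (above the line) and 14 of the genes with the most similar profile (below it) on the 10 arrays in columns, controls left of the line and hypothyroid livers right of it. Grey marks a spot left out as an outlier, the first 3 columns (controls 832, 522 and 616) are the darkest for nearly all genes, and Pnliprp1 is dark in every column.

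In the wider list 25 genes passed the filter, of which 20 had a lower and 5 a higher mean in hypothyroid liver, with a median difference of -1.47. By limma 0 were called after adjustment, while 16 reached an unadjusted p under 0.05, beside 7.47% of all probes. The list was chosen with earlier results of these data known, so neither count is evidence about it. Of the 37 on the array, 30 had controls 832 and 522 as the highest 2, and 20 of the 25 that passed the filter, beside 2.23% of all probes. With the dyes as labelled it was 0 of 37. Without slide 141, control 522 was the highest array for 32 of the 37 and for 20 of the 25, beside 10.1% of all probes. Some genes of the list, named after their values were seen, had other patterns. Amy2a5, a pancreatic amylase gene, resembled Pnliprp1, with ratios of 4.49, 5.07, 5.78, 2.88 and 4.67 in controls 881, 832, 522, 616 and 391 and 4.17 to 4.63 in the hypothyroid livers. Amylase genes are near-identical, so this probe may read the liver and salivary form too. Aqp8, a water channel that hepatocytes also have, was at 2.76 to 3.52 on all arrays, and Nr5a2, a nuclear receptor of both liver and pancreas, at 3.12 to 4.35. Dmbt1, a scavenger receptor protein of secretions, was uneven in another way, at 3.53, 2.90, 2.14 and 2.75 in controls 832, 522, 616 and 391 and at 1.33 in hypothyroid 576, but between -0.17 and -0.03 on the other 5 arrays. Ptf1a itself stayed between 0.00 and 0.19 on all arrays and was well above background on 2.

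Among probes that passed the filter, those more than 1 unit above every hypothyroid liver on control 832 numbered 53, and on control 522 they numbered 91. The 37 probes on both made up 69.8% of the first set and 40.7% of the second. They carry the symbols of 25 genes, of which 7 were members and 15 in the wider acinar list. Pnlip, which did not pass the filter, would be the eighth member. The other 3, named after their values were seen, were Ins2 (insulin), Klk1b3 (a kallikrein) and Csrp3 (a muscle LIM protein). With the dyes as labelled 0 probes were on both lists. Without slide 141, 98 probes were more than 1 unit up on control 522, with the symbols of 66 genes, of which 8 were members and 16 in the wider list.

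Markers of other cells were compared on the same arrays. Among islet genes, Ins2 was at 2.65 in control 832 and 2.21 in control 522, but at 0.20 in control 616 and -0.14 to 0.36 on the others, and a second Ins2 probe gave 2.66, 2.21 and 0.35. Ins1, also insulin and named after its values were seen, was at 1.93 and 0.93 in the first 2 of these. The islet genes Iapp and Chga were at 0.73 and 0.64 and at 0.73 and 0.52 there, against -0.09 to 0.22 and 0.00 to 0.38 elsewhere. Of 13 islet genes, 6 had controls 832 and 522 highest, beside 2.23% of all probes that passed the filter. The median difference of the 10 islet genes that passed it was -0.07. With the dyes as labelled 0 of 13 had these 2 arrays highest, beside 0.418% of probes. Without slide 141 control 522 was the highest array for 7 of 13, beside 10.1% of probes. Gcg (glucagon) and Ppy (pancreatic polypeptide), also named after their values were seen, differed: Gcg was at 0.44 on control 832 and 0.92 on control 522 against at most 0.08 elsewhere, and Ppy at 0.84 on control 832 and -0.01 on control 522. Pdx1, a pancreatic transcription factor, was at -0.09 to 0.04 throughout. Pcsk2 and Nkx6-1 did not follow the members (r = 0.136 and -0.471). None of 8 duct, 8 hepatocyte, 6 adipocyte, 6 lymphoid and 6 stomach or intestine genes had controls 832 and 522 highest. With a share of 2.23% over all probes, this count is near that share and is no result about these lists. The duct genes Krt19 and Spp1 were nearest to the reference on control 616, at -0.48 and -1.06 against -2.66 to -1.50 and -5.54 to -4.61 on the others, and Onecut1 was at 2.24 to 3.46.

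Summed over a list, the liver-channel signal of the 10 members was 75889 on control 832, 79652 on control 522, 13148 on control 616, 5990 and 5292 on controls 881 and 391, and 5596 to 6777 on the hypothyroid arrays. That of the wider list was 121330, 124000, 25481, 14370 and 16150 on the same controls, and 12538 to 15060 on the hypothyroid arrays. The islet sum was 2343 on control 832 and 2243 on control 522, against 1220 to 1699 on the others, with 10 of 13 genes well above background on both arrays and 6 to 10 on the others. The duct sum was 56439 on control 616, most of it Spp1, and 6392 to 11476 on the others. The hepatocyte sum was 679034 on control 616 and 888348 to 1445458 on the others. The adipocyte, lymphoid and stomach or intestine sums of controls 832 and 522 were inside or below the range of the other arrays. What part pancreatic tissue or its RNA had in these livers was not tested, and in bulk RNA more cells of a type and more RNA in each cell cannot be told apart.

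**Figure D4:**
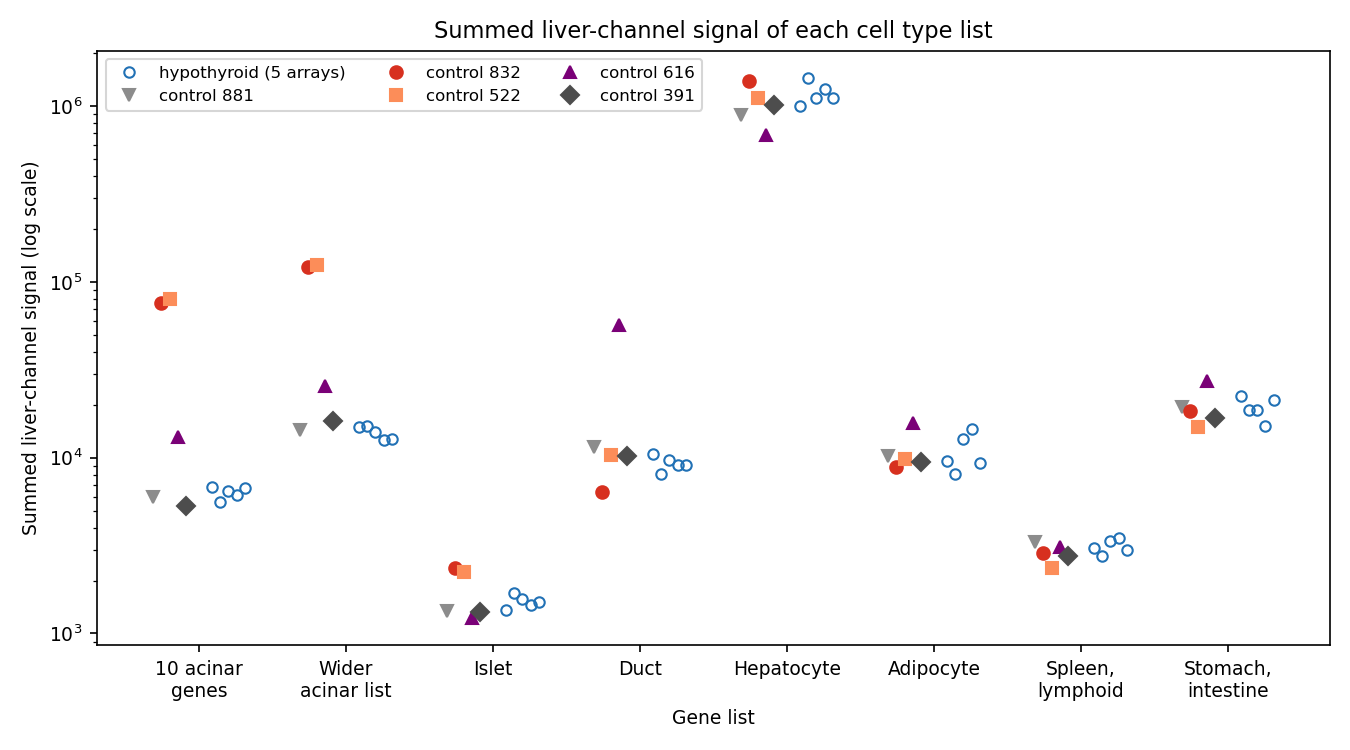
Liver-channel signal summed over each cell type list (vertical axis, log scale) on each of the 10 arrays, with filled symbols for controls and open circles for hypothyroid livers. Controls 832 and 522 exceed the other arrays for the acinar lists and for islet genes, and control 616 exceeds them for duct genes and, by less, for adipocyte and stomach or intestine genes.

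MiRNAs of the exocrine pancreas were read in a separate RNA extraction by TaqMan low density arrays (TLDA), and the members were not chosen on these values. The livers were those of 4 control and 4 hypothyroid pups, whose numbers in the labels do not match those of the arrays, so no animal could be followed between the assays. MiR-217, miR-216a and miR-216b are encoded within 17.6 kb on chromosome 11 and are known from acinar cells, so their mature sequences are given (RefSeq, GRCm38.p6, the seed, bases 2 to 8, in capitals).
miR-217, chr11:28763761-28763783, plus strand: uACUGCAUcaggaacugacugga
miR-216a, chr11:28757018-28757039, plus strand: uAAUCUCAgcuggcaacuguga
miR-216b, chr11:28746204-28746225, plus strand: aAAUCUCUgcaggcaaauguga
The seeds of miR-216a and miR-216b share 6 of 7 bases, while that of miR-217 shares 2 and 3 of 7 with them, position by position.

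MiR-217 was read in 1 control and 1 hypothyroid liver. Control 2 had a threshold cycle of 34.17 and hypothyroid 3 one of 38.57, and the other 6 livers were not read within 40 cycles. MiR-216b was read in 5 livers, at 33.41 and 36.91 cycles in controls 2 and 3 and at 35.15, 37.10 and 36.70 in hypothyroid animals 1, 2 and 3. Control 2 was thus the earliest for both miR-217 and miR-216b. MiR-216a was read in hypothyroid 2 only, at 37.29 cycles. For comparison, the hepatocyte miRNA miR-122 was read between 18.39 and 19.30 cycles in all 8 livers. The islet miRNA miR-375 was read at 25.78 cycles in hypothyroid 1 and at 28.16 to 29.11 in the other 7.

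Relative to U6 none of these miRNAs differed between the groups beyond the spread between animals. The log2 change in hypothyroid liver was -1.35 for miR-217 (limma standard error 1.34, adjusted p = 0.690, exact two-sided permutation p = 0.543), 0.43 for miR-216a (standard error 0.51, adjusted p = 0.690, exact p = 0.600) and 0.09 for miR-216b (standard error 1.65, adjusted p = 0.984, exact p = 0.943). The smallest p that 4 animals against 4 allow is 0.0286. Without control 2 the change of miR-217 was 0.07. Most of these wells stand at the limit of 40 cycles, so the changes are differences between bounds. MiR-375 changed by 0.38 (adjusted p = 0.825, exact p = 0.914) and miR-122 by 0.04 (adjusted p = 0.958, exact p = 0.857). Of the 563 miRNAs in the limma comparison, 0 (0%) passed an adjusted p of 0.1, and 22 reached an unadjusted p under 0.05. The exact p-values, adjusted over these 5 miRNAs, were all 0.943.

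**Figure D5:**
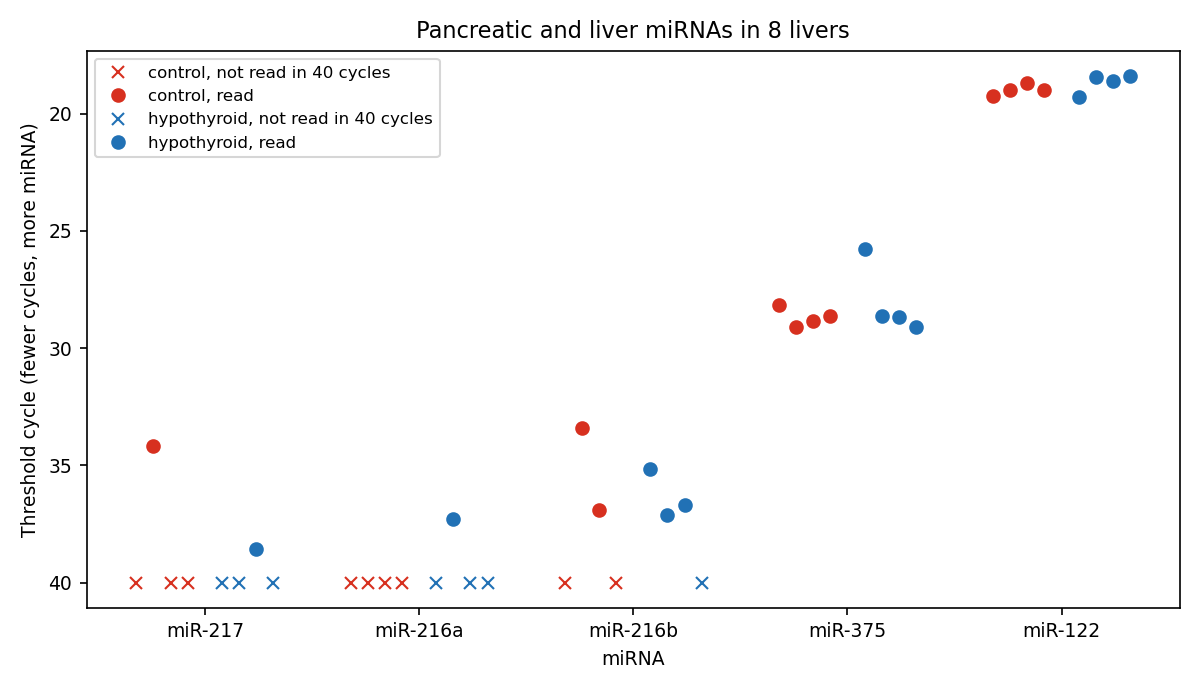
Threshold cycle (vertical axis, inverted so that more miRNA is higher) of 3 acinar miRNAs, the islet miRNA miR-375 and the liver miRNA miR-122 in 4 control and 4 hypothyroid livers, 1 point for each animal. Crosses at 40 mark wells not read, which is most of them for miR-217 and miR-216a, while miR-122 is read between 18.39 and 19.30 cycles in every liver.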

How the data were processed

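For each array the authors deposited the median signal intensity of every spot in both channels, as read by Feature Extraction, without normalization between arrays. For the TLDA the authors deposited threshold cycles and the delta Ct against U6, on a log2 scale, with the threshold cycle as a score of each well. The depth of the arrays is their number, which limits the precision.

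From the median intensities, log2 ratios were computed with limma 3.58.1 in R 4.3.3 (normexp, offset 50; loess, span 0.2), with control and outlier spots left out, repeated spots averaged and the channels of slide 141 exchanged. Probes were kept if the liver signal was above the 5% trimmed mean plus 3 trimmed SDs of negative controls in at least 4 of 5 arrays of a group. Single-channel levels were taken after loess and Aquantile scaling. Probes were named by accession through RefSeq (GRCm38.p6), for 23374 of 41174. Where a gene had several probes the brightest was used. Groups were compared with limma and Benjamini-Hochberg adjustment, at 0.05 for arrays and 0.1 for TLDA, and by exact permutation over 70 assignments for single miRNAs with minus delta Ct. P-values of limma set a group difference against the spread between samples of a group. Those of the permutation rank it among the 70 assignments.

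The members and gene lists were chosen with earlier results of these data known. Named genes were the members, the 12 wider-list genes and the 15 genes of any kind most like them, 5 miRNAs, and of each other list the brightest 3 and those well above background on the 9 arrays where most members were. One of them is not reported here. Programs were tested on simulated data. Alternatives are given at the end. The authors' own table of fold changes and p-values was not used.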

Additional observations from a re-analysis of the deposited data

Results flagged for a closer look

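In 98 groups of 4 or 5 samples (members, genes named beside them and miRNAs, control and hypothyroid apart) the gap between an extreme sample and the next, divided by the whole range of that group, was compared with Dixon's 95% critical value, and 11 groups exceeded it. Chance exceeds it in about 1 of 20 groups. None of the members did so among the control livers. Among the hypothyroid livers Serpini2 was lowest on array 311 (-0.02, share 0.818) and Sycn, a zymogen granule protein, was highest on the same array (0.43, share 0.771). MiR-217 stood apart in control 2 (minus delta Ct -15.18, share 0.859) and miR-216a in hypothyroid 2 (-18.97, share 0.896).

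Among genes of other cells, the fat cell genes Cfd (4.04, share 0.945) and Plin1 (1.28, share 0.850) were highest on hypothyroid 311. Control 616 was highest for Spp1 (-1.06, share 0.805) and lowest for Fabp4 (3.39, share 0.748) and Fabp2 (4.62, share 0.773). Krt19 was lowest on hypothyroid 626 (-2.66, share 0.806) and Fgb on hypothyroid 576 (3.84, share 0.848). No explanation was tested.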

How the results depend on the processing

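The median member difference, -1.35, kept its sign under all alternatives and was nearest to 0 with the dyes as labelled (-0.27). It was -1.02 without slide 141, and between -1.67 and -1.02 without any 1 array. Of 170 member values under alternatives, 3 moved by more than the SD of the control livers (Pnlip to -2.39 and Gp2 to -1.99 with processed signals, Ctrb1 with the dyes as labelled). That SD holds the split between high and low controls (3.21 for Cpb1), so large shifts stayed within it. With the dyes as labelled Cpb1 went from -3.23 to -0.68, Cpa1 from -2.03 to -0.52 and Clps from -2.05 to -0.47. The sign changed for 5 values. These were Ctrb1 (0.13) and Pnlip (0.03) with the dyes as labelled, and Pnliprp1, whose reported value was 0.03, with slide as a fixed block (-0.04) and without control 616 (-0.21) or control 391 (-0.03). Single controls moved 3 members other than Pnliprp1 by over 1.5 times: Pnlip to -0.47 without control 832 and -0.49 without control 522, and Gp2 to -0.37 and Ctrb1 to -0.39 without control 522. Pnliprp1, reported near 0, also moved, to 0.12 without control 832 and 0.24 without control 522. Each member has 1 probe, so averaging probes was not run. The turned and slide-free counts and likenesses of the report were added after seeing the data. In other settings so added, controls 832 and 522 were highest for 10 members without control 616, 10 without background correction, 9 with processed signals, 8 with median centring and 0 with the dyes as labelled. Of the 15 genes most like the members, 12 to 14 were in the wider list without background correction, with median centring, without slide 141 and without control 616, the only alternatives run for it.

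The number of probes called, 3, was 8 without background correction, 1 with processed signals, 1 with median centring, 0 with the dyes as labelled, 5 for probes above the limit on all 10 arrays, 0 with slide as a fixed block, 14 as a random block and 0 without slide 141. Leaving out 1 array gave 1 to 34, with 34 without control 616, 6 without hypothyroid 723 and 1 without control 832, control 391, hypothyroid 576 or hypothyroid 626. The causes were not tested.

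With the mean of 234 miRNAs in place of U6, miR-216b changed by -0.23 and miR-122 by -0.28, and 170 of 584 miRNAs had an adjusted p below 0.1 by limma, of which 151 were not read in any animal. Animal numbers are shared by the TLDA groups, but same-numbered animals did not deviate together (r of -0.03 to 0.16). A replicate block cannot move the changes of miR-217, miR-216a and miR-216b, because each number holds 1 control and 1 hypothyroid animal. These changes were therefore again -1.35, 0.43 and 0.09 (limma adjusted p = 0.749, 0.749 and 0.980), with 0 miRNAs called. The study as a block cannot move them either, because each study held as many control as hypothyroid animals. Without any 1 animal the change was -1.96 to 0.07 for miR-217, -0.08 to 0.63 for miR-216a, -0.84 to 1.45 for miR-216b, -0.43 to 0.74 for miR-375 and -0.17 to 0.20 for miR-122. Wells at 40 cycles and 10 arrays limit what can be seen.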
